A study of Mus musculus with 84 samples.

Results

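The genes that encode the intermediate filament proteins of astrocytes, Gfap, Vim, Nes and Synm, were followed through the series. They were chosen by name, and all 4 were found among the 48526 genes of the count table of experimental autoimmune encephalomyelitis (EAE) and the 25773 genes of the count table of astrocyte subtypes. The EAE table held 66 libraries of astrocytes sorted from adult female C57BL/6J mice, in 12 groups. Mice were immunized with a myelin oligodendrocyte glycoprotein peptide in complete Freund's adjuvant together with pertussis toxin, and were taken at clinical score 1 (E1), at score 4 (E4) or in the chronic phase (Ech); the controls (C) were not immunized, so immunization, adjuvant and toxin cannot be told apart from disease. Live CD11B-negative, CD45-negative cells that carried the astrocyte surface antigen ACSA-2 were sorted by their level of the glutamate transporter GLAST. Hindbrain (cerebellum with brain stem) gave a GLASTneg population (HB_A) and a GLASTpos population (HB_AG), and spinal cord gave a GLASTneg population (SC_A). Each group held 4 to 6 libraries, and mice were pooled for some libraries. The subtype table held 15 libraries of 5 astrocyte groups from healthy FVB/N mice, with 3 libraries in each group, and 3 libraries of cultured neonatal C57BL/6J astrocytes.

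Intermediate filaments are rope-like polymers that give a cell its tensile strength, and the set of filament proteins that a cell makes is typical of its type and state. Glial fibrillary acidic protein (Gfap) is the classical filament of astrocytes, and its rise is the most widely used sign of astrocyte reactivity, called astrogliosis. Vimentin (Vim) is the filament protein of immature glia, of the Bergmann glia of the cerebellum and of many mesenchymal, vascular and blood cells. Nestin (Nes) marks neural stem and progenitor cells and appears again in reactive astrocytes; it needs vimentin to build filaments. Synemin (Synm) is a large protein that joins such filaments as a partner and ties them to other parts of the cell.

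In the GRCm38 annotation (GENCODE M21), Gfap lies on the minus strand of chromosome 11 (102887336 to 102900912) and Vim on the plus strand of chromosome 2 (13573927 to 13582826). Nes lies on the plus strand of chromosome 3 (87971078 to 87980451) and Synm on the minus strand of chromosome 7 (67730160 to 67759742). Their coding transcripts have up to 9 exons for Gfap, 9 for Vim, 5 for Nes and 5 for Synm. On the opposite strand the annotation places the lincRNA Gm26668 over Gfap, and the coding gene Ttc23 and Gm45102 over Synm. The strand setting used for counting is not given in the sources used here, so reads of these partners cannot be told apart from reads of Gfap or Synm. Ttc23 itself had 2222 counts over the 66 EAE libraries, with 84 in the highest.

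The promoters are shown as a description of the start regions, and no link between their motifs and the levels of the 4 genes was tested. Each line below runs 5′ to 3′ on the gene's own strand, from 250 bases before to 50 bases after the RefSeq start (GRCm38.p6), at chr11:102897151-102897450 (minus strand) for Gfap, chr2:13574061-13574360 (plus strand) for Vim, chr3:87970843-87971142 (plus strand) for Nes and chr7:67759693-67759992 (minus strand) for Synm. Capitals mark matches, on either strand, to 7 searched motifs.
Gfap: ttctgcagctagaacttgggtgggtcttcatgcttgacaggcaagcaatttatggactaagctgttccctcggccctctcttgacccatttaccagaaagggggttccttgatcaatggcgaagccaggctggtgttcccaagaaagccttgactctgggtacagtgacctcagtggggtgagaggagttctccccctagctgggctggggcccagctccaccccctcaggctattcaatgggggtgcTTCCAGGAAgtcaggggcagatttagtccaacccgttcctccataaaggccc
Vim: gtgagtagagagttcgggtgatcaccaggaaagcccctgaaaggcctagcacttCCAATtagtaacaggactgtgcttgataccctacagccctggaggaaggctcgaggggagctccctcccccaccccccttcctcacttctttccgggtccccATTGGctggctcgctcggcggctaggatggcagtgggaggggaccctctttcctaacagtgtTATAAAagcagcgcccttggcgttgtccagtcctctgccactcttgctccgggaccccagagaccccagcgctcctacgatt
Nes: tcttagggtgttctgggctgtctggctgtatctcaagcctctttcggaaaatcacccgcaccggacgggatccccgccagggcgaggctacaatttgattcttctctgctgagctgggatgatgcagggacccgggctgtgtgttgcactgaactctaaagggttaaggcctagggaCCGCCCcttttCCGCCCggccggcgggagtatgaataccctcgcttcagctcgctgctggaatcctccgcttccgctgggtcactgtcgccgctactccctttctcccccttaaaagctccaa
Synm: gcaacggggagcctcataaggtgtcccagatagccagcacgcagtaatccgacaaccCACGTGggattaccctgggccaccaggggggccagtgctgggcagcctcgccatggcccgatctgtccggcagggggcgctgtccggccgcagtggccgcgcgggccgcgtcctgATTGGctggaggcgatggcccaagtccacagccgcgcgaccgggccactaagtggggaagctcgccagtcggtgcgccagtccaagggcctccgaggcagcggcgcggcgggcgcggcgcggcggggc

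The searched letters were TTCNNNGAA (the site that STAT factors bind), TGANTCA (the site of AP-1 factors), the nuclear factor I palindrome, CCAAT (the box bound by the factor NF-Y), TATAAA (the TATA box, which places the start of transcription), GGGCGG (the GC box of Sp factors) and CACGTG (the E-box of basic helix-loop-helix factors), and no match of one motif overlapped a match of another. Positions count from the RefSeq start. The Gfap and Vim windows lie wholly inside the GENCODE genes given above, whose 5′ ends are at 102900912 and 13573927. Their positions hold for the RefSeq start only. The Gfap window held TTCCAGGAA from position -2, a match that 8.3% of all 32851 RefSeq promoters of this length share. The Vim window held CCAAT at -196, the same letters on the other strand at -94 and TATAAA at -32, motifs found in 37.4% and 13.6% of promoters. The Nes window held the GC box on the other strand at -73 and -62 (35.7% of promoters), and the Synm window held CACGTG at -193 (7.15% of promoters) and CCAAT on the other strand at -78. TGANTCA and the nuclear factor I palindrome, present in 7.81% and 0.807% of promoters, had no match in these 4 windows. The share of G and C was 55.7% for Gfap, 59.3% for Vim, 58.7% for Nes and 72.7% for Synm, against a median of 52.7% over all promoters. These matches describe the letters of the windows and are not measured binding sites.

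The EAE libraries held between 1313682 and 4895220 counts (median 2936680), the FVB/N libraries between 416768 and 1269316 and the cultured libraries between 2183464 and 8188074. Levels are given as counts per 1000000 counts (CPM) of the scaled library; each transcript gives about 1 tag at its 3′ end, so CPM were not divided by length and levels are compared between libraries and not between genes. A limit of 3 counts was taken as the floor of detection, which equals 0.634 to 2.44 CPM in EAE libraries. A member is said to rise or fall where edgeR's quasi-likelihood test gave a Benjamini-Hochberg adjusted p under 0.05 over all genes. Sums of the spinal cord position genes Hoxc6, Hoxc8, Hoxc9, Hoxa7 and Hoxa9 were 10.96 CPM or less in the hindbrain libraries and 34.13 CPM or more in those labelled spinal cord, which include replicate 1 of E1_SC_A, named a spinal cord sample by its title and hindbrain by its region label. Libraries that stood apart in marker sums included replicate 2 of E4_SC_A, with 4712 CPM over 12 myeloid genes against 286.7 CPM or less in the other libraries of its group. Others were replicate 2 of E1_SC_A, with 21930 CPM over 9 astrocyte genes against 9758 or less, and replicate 1 of E4_HB_AG, with 388 CPM over 6 T cell genes. The highest T cell sum in E1_HB_AG was 233.8 CPM, against a group median of 37.6 CPM.

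Gfap rose in hindbrain astrocytes at every stage of EAE and had its highest means at scores 1 and 4. In GLASTneg hindbrain controls the 5 libraries had Gfap levels of 25.1, 26.7, 39.3, 27.4 and 29.2 CPM. The 6 E1_HB_A libraries ran from 159 to 341 CPM (median 205), the 6 E4_HB_A libraries from 182 to 285 CPM (median 228) and the 6 Ech_HB_A libraries from 64.5 to 178 CPM (median 106). All libraries of each stage were above all controls. The log2 difference from controls was 2.94 ± 0.37 (SE) at E1 (adjusted p = 7.36e-08), 2.96 ± 0.37 at E4 (adjusted p = 2.97e-08) and 1.92 ± 0.36 at Ech (adjusted p = 0.00218), or 7.68-fold, 7.78-fold and 3.79-fold. Gfap was the 1 member of 4 that passed in this population at each stage, where 0.656%, 0.755% and 0.197% of all 23324 genes tested passed at E1, E4 and Ech. In a limma voom fit with the number in the title brackets, which recurs across populations, as a random effect, the chronic value was 1.90 and did not pass (adjusted p = 0.448).

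GLASTpos hindbrain astrocytes showed Gfap higher at the same stages. The C_HB_AG libraries had Gfap levels of 6.54, 36.4, 28.4, 13.7 and 16.4 CPM, a wider spread than in HB_A. Levels ran from 46.6 to 383 CPM (median 225) at E1 and from 152 to 344 CPM (median 207) at E4, with no overlap with controls. The 4 Ech_HB_AG libraries had 35.6, 45.8, 62.1 and 89.8 CPM, and the lowest of them was below the highest control. Gfap rose by 3.46 ± 0.38 on the log2 scale at E1 (adjusted p = 1.56e-09), by 3.43 ± 0.38 at E4 (adjusted p = 1.09e-09) and by 1.53 ± 0.38 at Ech (adjusted p = 0.0184). Again Gfap was the 1 member of 4 that passed, where 1.58%, 2.1% and 1.42% of genes passed at E1, E4 and Ech. The E4 value without replicate 1 was 3.48 (adjusted p = 1.04e-09). The chronic value did not pass without replicate 1, 4 or 5 of C_HB_AG (1.32, 1.41 and 1.46, adjusted p = 0.0823, 0.0615 and 0.0698) or without replicate 4 of Ech_HB_AG (1.25, adjusted p = 0.102), nor in a fit of HB_AG alone (adjusted p = 0.0657) or in the voom fit with the bracket number (adjusted p = 0.184).

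In the spinal cord libraries Gfap rose at scores 1 and 4, and the chronic libraries overlapped the controls. The C_SC_A libraries had 47.6, 26.9, 69.1, 50.6 and 50.1 CPM, and the E1_SC_A libraries had 159, 323, 126, 195 and 164 CPM. The E4_SC_A libraries ran from 85.2 to 152 CPM (median 95.5), still above every control, and the Ech_SC_A libraries from 18.8 to 82.5 CPM (median 43.8), on both sides of the controls. Gfap rose by 1.98 ± 0.36 at E1 (adjusted p = 7.23e-05) and by 1.10 ± 0.34 at E4 (adjusted p = 0.0126), and differed by -0.10 ± 0.34 at Ech (adjusted p = 0.966). Without replicate 2 of E1_SC_A, the library with the most Gfap, the E1 difference was 1.72 (adjusted p = 0.000476), and without replicate 1 it was 2.02 (adjusted p = 0.000108). Without replicate 2 of E4_SC_A the E4 difference was 1.15 (adjusted p = 0.013), and in the voom fit with the bracket number it was 1.14 and did not pass (adjusted p = 0.0848).

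**Figure D1:**
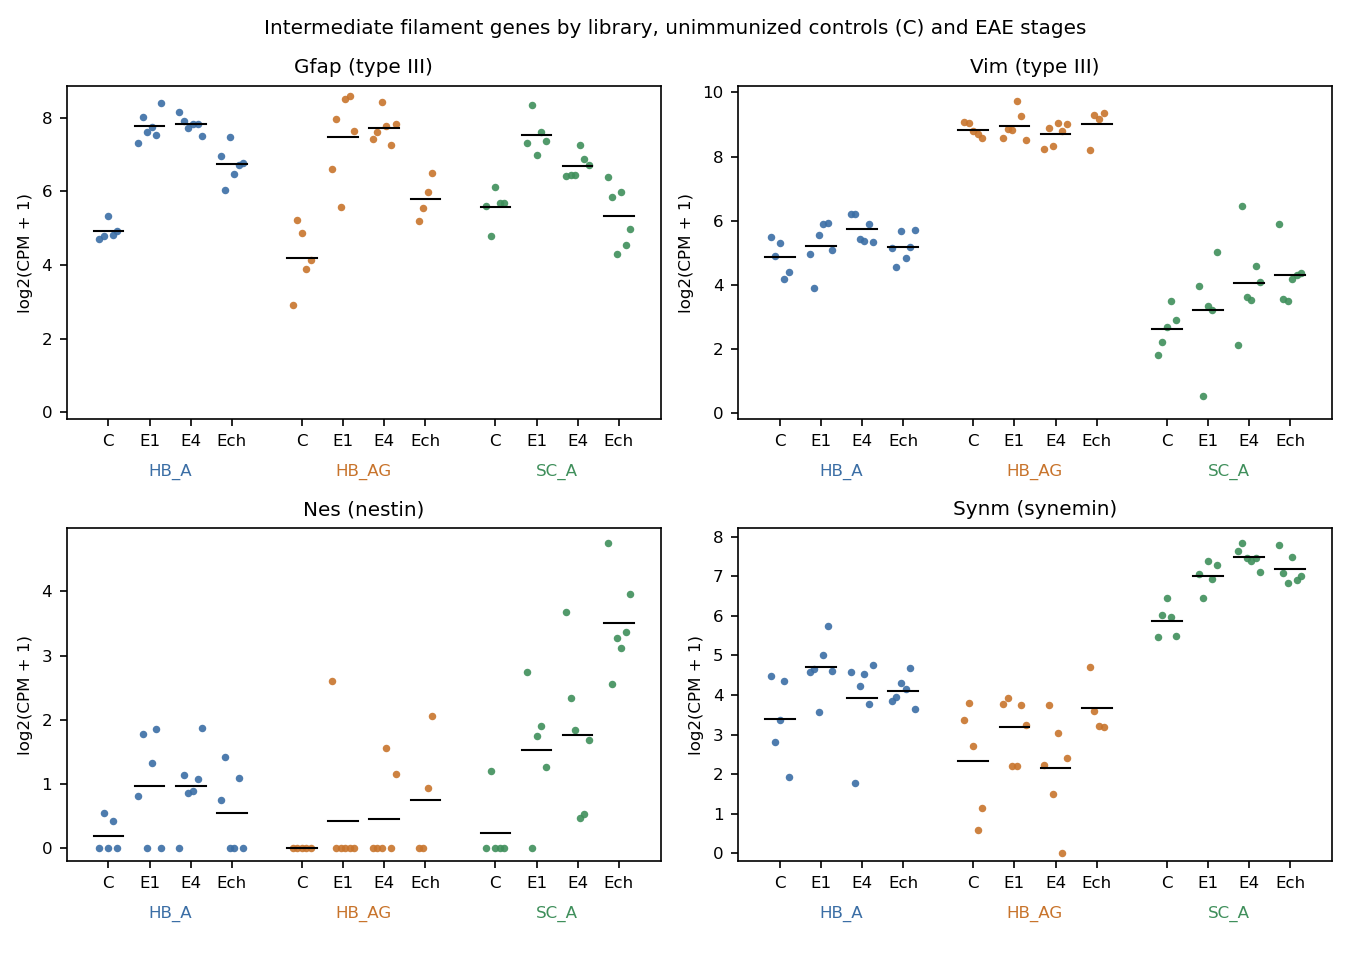
Level of Gfap, Vim, Nes and Synm as log2(CPM + 1) on the vertical axis in each of the 66 EAE libraries (points), by stage (C, E1, E4, Ech) and population (HB_A, HB_AG, SC_A), with a bar at the group mean. Gfap lies higher at E1 and E4 in all 3 populations, Vim is set apart in HB_AG at every stage, and Nes and Synm are highest in SC_A.

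Between stages, Gfap at E4 was not told apart from E1 in any population. It fell from E4 to the chronic phase in the GLASTpos hindbrain and the spinal cord libraries. From E1 to E4 the log2 difference of Gfap was 0.02 ± 0.31 in HB_A, -0.04 ± 0.31 in HB_AG and -0.88 ± 0.33 in SC_A (adjusted p = 1, 1 and 0.104). With edgeR 0 of the 4 members passed in each of these comparisons, 0, 0 and 2 had an unadjusted p under 0.05 (the 2 in SC_A were Gfap and Vim), and DESeq2 called 0 members in each; 0%, 0.0214% and 5.97% of all genes passed. In HB_A, where no gene passed, 1137 genes had an unadjusted p under 0.05 and DESeq2 called 1. From E4 to Ech Gfap fell by 1.90 ± 0.38 in HB_AG (adjusted p = 0.000611) and by 1.20 ± 0.32 in SC_A (adjusted p = 0.0156), in each case with no overlap of libraries. In HB_A the difference was -1.04 ± 0.32 and did not pass (adjusted p = 0.455), although the libraries did not overlap either. The members past the test numbered 1 in HB_AG and 1 in SC_A, where 4.21% and 4.56% of genes passed, and 0 in HB_A, where 0.09% of genes passed, 1 member had an unadjusted p under 0.05 and DESeq2 called 0. The fall in SC_A did not pass without replicate 4 of E4_SC_A (-1.09, adjusted p = 0.0512) or without replicate 3 or 5 of Ech_SC_A (-1.07 and -1.07, adjusted p = 0.053 and 0.0634), nor with a term for the S number described below (-1.30, adjusted p = 0.0587).

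Vim separated the populations and not the stages in the hindbrain. In unimmunized mice the C_HB_AG libraries had 535, 532, 441, 415 and 382 CPM of Vim. The C_HB_A libraries had 43.8, 29, 38.6, 17 and 20.2 CPM, and the C_SC_A libraries had 2.48, 3.61, 5.45, 10.4 and 6.55 CPM. The 3 ranges did not touch. Vim was higher in HB_AG than in HB_A by 3.96 ± 0.48 on the log2 scale (adjusted p = 2.02e-09), lower in SC_A than in HB_A by a difference of -2.34 ± 0.51 (adjusted p = 0.00109) and lower in SC_A than in HB_AG by a difference of -6.30 ± 0.55 (adjusted p = 6.02e-15). Among these control comparisons 1, 2 and 3 of the 4 members passed, where 13.5%, 5.36% and 17% of all genes passed. The number after the letter S in the library titles, whose meaning the labels do not give, was 56 or less in every HB_A library and above 56 in every HB_AG and C_SC_A library, so among controls this split and HB_A coincide. With the split as a term, which the spinal cord libraries on both sides of 56 allow, Vim differed by 3.90 between HB_AG and HB_A (adjusted p = 1.58e-05) and by -2.40 between SC_A and HB_A (adjusted p = 0.0366), and Synm by 2.45 between SC_A and HB_A (adjusted p = 0.0125), while the genes that passed went from 3147 to 1734 and from 1250 to 792. The other members that passed were Synm, higher in SC_A than in HB_A (2.31 ± 0.49, adjusted p = 0.000771) and than in HB_AG (3.40 ± 0.52, adjusted p = 4.38e-07), and Gfap, higher in SC_A than in HB_AG (1.27 ± 0.37, adjusted p = 0.00902). In the voom fit with the bracket number, Vim in SC_A against HB_A and Gfap in SC_A against HB_AG did not pass (adjusted p = 0.176 and 0.142).

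During EAE Vim passed at no stage in the hindbrain and rose in the spinal cord. Its log2 difference from controls was 0.46 ± 0.43, 0.87 ± 0.43 and 0.32 ± 0.43 at E1, E4 and Ech in HB_A and 0.18 ± 0.40, -0.10 ± 0.40 and 0.22 ± 0.44 in HB_AG, and the lowest adjusted p of these was 0.622. From its low start in spinal cord, Vim rose at E4 by 2.10 ± 0.50 (adjusted p = 0.000771) and at Ech by 1.96 ± 0.49 (adjusted p = 0.00201). The E1_SC_A libraries had 14.7, 0.456, 9.09, 8.22 and 31.5 CPM, a range that held all controls (1.18 ± 0.52, adjusted p = 0.137). The E4_SC_A libraries ran from 3.38 to 86.3 CPM (median 13.6) and the Ech_SC_A libraries from 10.4 to 58.6 CPM (median 17.9). The lowest chronic library matched the highest control (both 10.4 CPM) and the other 5 were above it, whereas 1 of the 6 E4 libraries, replicate 1, lay well within the control range. The 86.3 CPM belonged to replicate 2 of E4_SC_A, the library with the highest myeloid sum, and without it the E4 difference was 1.18 (adjusted p = 0.0555). Replicate 2 of E1_SC_A, the library with the highest astrocyte sum, held 1 count of Vim, and without it the E1 difference was 1.46 (adjusted p = 0.0466). In the voom fit with the bracket number the Vim differences were 1.63 at E4 and 1.84 at Ech and neither passed (adjusted p = 0.3 and 0.203).

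Among the EAE libraries, Nes was hardly detected outside the spinal cord of mice with EAE. In the 3 control populations 1 library, replicate 2 of C_SC_A, exceeded 3 counts with 4 counts (1.31 CPM), and the other 14 were at or under the floor. In the hindbrain of mice with EAE Nes stayed near the floor, with group means of 0.53 to 1.22 CPM, and did not pass at any stage (lowest adjusted p = 0.13). In the spinal cord the E1_SC_A libraries had 5.72, 0, 2.37, 2.74 and 1.41 CPM. The E4_SC_A libraries had 11.8, 4.04, 2.6, 0.389, 0.455 and 2.22 CPM and the Ech_SC_A libraries had 25.9, 4.89, 8.67, 7.72, 9.29 and 14.5 CPM. Each chronic library was above every control, while the E1 and E4 libraries overlapped the controls. The log2 difference from controls was 2.99 ± 1.47 at E1 (adjusted p = 0.187), 3.50 ± 1.47 at E4 (adjusted p = 0.0758) and 5.23 ± 1.58 at Ech (adjusted p = 0.0123), so that Nes passed in the chronic phase. The size of these differences depends on the prior count, since the control mean of 0.262 CPM rests on 4 counts of 1 library. Without that control library the E1 and E4 differences were 5.87 and 6.45 and passed (adjusted p = 0.0448 and 0.0106). With all libraries the E4 value passed in DESeq2 (3.70, adjusted p = 0.0385), in a fit of SC_A alone (3.52, adjusted p = 0.0215) and in the voom fit with the bracket number (2.88, adjusted p = 0.0073), and the E1 value in the last of these (2.72, adjusted p = 0.0396). The chronic value ran from 4.81 to 8.14 over all alternatives and passed in each (largest adjusted p = 0.0369).

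Synm was highest in the spinal cord libraries and rose there further in EAE. In these libraries the sum over 10 oligodendrocyte genes had a median of 18340 CPM in C_SC_A and 53770 CPM in E4_SC_A. Over 9 astrocyte genes the medians were 16980 and 3161 CPM. The part of this makeup in the Synm values was not tested. The C_SC_A libraries had 43.1, 63.6, 86.6, 61.2 and 44 CPM, against 21.2, 5.98, 9.32, 19.4 and 2.81 CPM in C_HB_A and 9.4, 12.9, 5.55, 0.508 and 1.23 CPM in C_HB_AG. The E1_SC_A libraries had 132, 85.7, 166, 120 and 154 CPM, with replicate 2, the library with the highest astrocyte sum, lowest and just under the highest control. The E4_SC_A libraries ran from 137 to 226 CPM (median 175) and the Ech_SC_A libraries from 112 to 218 CPM (median 131), all above every control. Synm rose by 1.58 ± 0.45 at E4 (adjusted p = 0.00571; 1.50 without replicate 2 of E4_SC_A, adjusted p = 0.0129) and by 1.31 ± 0.44 at Ech (adjusted p = 0.0286), while the E1 difference of 1.14 ± 0.46 did not pass (adjusted p = 0.106). The E1 value passed in a fit of SC_A alone (adjusted p = 0.00235), in the newer quasi-likelihood fit (adjusted p = 0.0133) and in the voom fit with the bracket number (adjusted p = 0.00387). The chronic value did not pass without replicate 1, 4 or 5 of C_SC_A (1.21, 1.32 and 1.22, adjusted p = 0.0745, 0.0521 and 0.0719) or without replicate 1 of Ech_SC_A (1.13, adjusted p = 0.0802), nor among libraries with an S number above 56 (1.31, adjusted p = 0.0798). In the hindbrain the Synm difference from controls lay between -0.14 and 1.21 and did not pass at any stage.

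In the spinal cord, then, 1 member passed at E1 (Gfap), 3 at E4 (Gfap, Vim and Synm) and 3 at Ech (Vim, Nes and Synm), all of them higher, where 8.4%, 22.4% and 18.7% of all genes passed. The share of genes that passed was thus itself far larger than in the hindbrain. The controls and the EAE libraries of the spinal cord also differed in this number after the letter S. It was above 56 in all 5 controls and in 1 of the 6 E4_SC_A libraries, replicate 3. Among libraries above 56 alone, the E4 differences were 0.82 for Gfap, 0.95 for Vim and 1.55 for Synm, none of which passed (adjusted p = 0.56, 0.609 and 0.28). With this split as a term over all EAE libraries, Vim passed (2.15, adjusted p = 0.0209) and Gfap and Synm did not (1.26 and 1.47, adjusted p = 0.0611 and 0.0746). The part of this split in the E4 differences was not tested further.

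**Figure D2:**
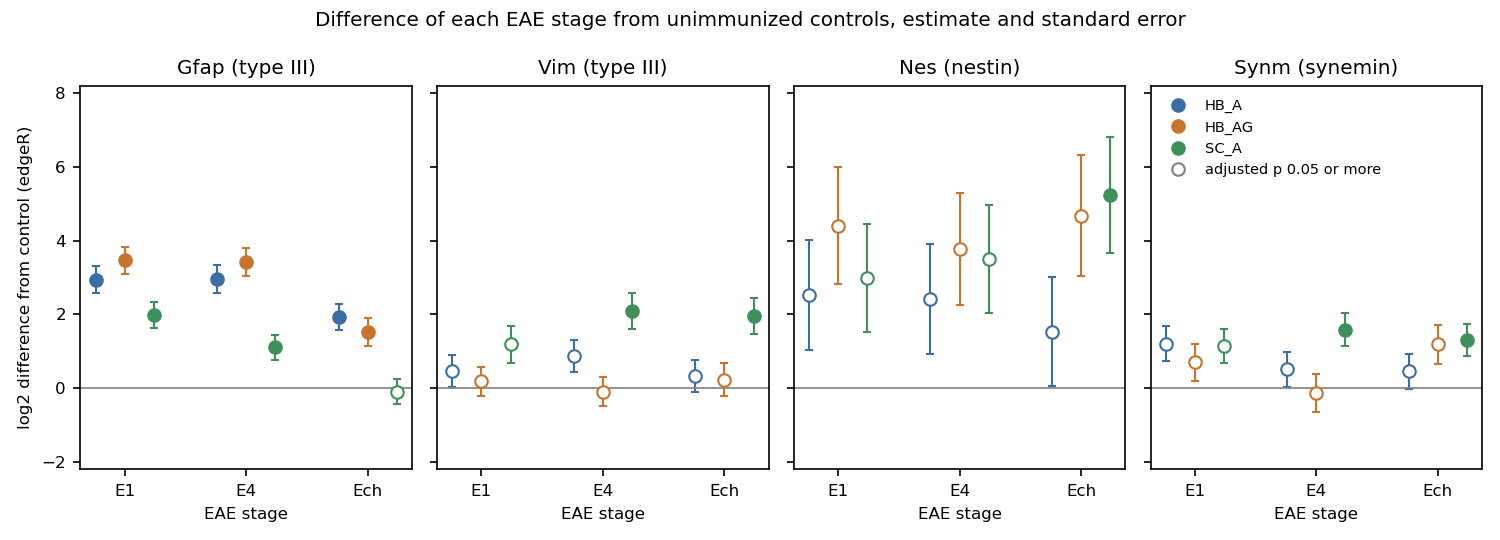
Log2 difference from unimmunized controls (vertical axis) of each member at E1, E4 and Ech, with the standard error as bars, for HB_A, HB_AG and SC_A; open points have an adjusted p of 0.05 or more. Gfap differences are positive except in SC_A at Ech (-0.10), and Vim, Nes and Synm have filled points in SC_A.

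Whether the stages moved a member to a different extent in the populations was tested as a difference of differences. In CPM, Gfap rose less in spinal cord than in hindbrain at E4, by -1.86 ± 0.48 against HB_A (adjusted p = 0.00628) and by -2.32 ± 0.49 against HB_AG (adjusted p = 0.000285). The same held at Ech, by -2.02 ± 0.49 (adjusted p = 0.00285) and -1.63 ± 0.51 (adjusted p = 0.0219). The latter was -1.37 without replicate 4 of Ech_HB_AG and did not pass (adjusted p = 0.0749). The astrocyte sum of SC_A had medians of 16980 CPM in controls and 3161 CPM at E4. Per 1000 CPM of the astrocyte sum, Gfap medians at C, E4 and Ech were 2.81, 35.7 and 7.93 in SC_A. They were 1.28, 8.95 and 4.91 in HB_A and 0.632, 8.09 and 2.57 in HB_AG. Differences in response were not tested in this ratio. Vim rose more in SC_A than in HB_AG at E4, by 2.20 ± 0.63 (adjusted p = 0.0123), but by 1.28 without replicate 2 of E4_SC_A (adjusted p = 0.137). In the voom fit with the bracket number the 4 Gfap differences and that of Vim kept their sign and 4 of these 5 did not pass (adjusted p = 0.139 and 0.339 for Gfap against HB_A and Vim at E4, 0.0852 and 0.111 for Gfap at Ech), and with the S number term Gfap against HB_A and Vim at E4 did not pass (adjusted p = 0.0892 and 0.0699). Synm at E4 against HB_AG differed by 1.72 ± 0.68 (adjusted p = 0.0802) and passed in DESeq2 (1.78, adjusted p = 0.0405) and without replicate 4 or 5 of C_HB_AG or replicate 2 of E4_HB_AG (2.04, 2.03 and 2.24, adjusted p = 0.0292, 0.0376 and 0.0214). Against HB_A, SC_A differed for 0, 1 and 1 members at E1, E4 and Ech, where 0.197%, 8.39% and 7.15% of genes passed, and against HB_AG for 0, 2 and 1 members, where 1.99%, 12.9% and 13.1% passed. At E1 the Gfap difference was -0.96 ± 0.49 against HB_A and -1.48 ± 0.49 against HB_AG (adjusted p = 0.424 and 0.0864). For HB_AG against HB_A 0 members passed at each stage by edgeR, with 0 members at an unadjusted p under 0.05 and 0 called by DESeq2, where 0.00857%, 0.00857% and 0.06% of genes passed; at E1, 0 and 1 members had an unadjusted p under 0.05 for SC_A against HB_A and HB_AG, and DESeq2 called 0.

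The cell makeup of the spinal cord libraries moved with the stages. Over 9 astrocyte genes (Slc1a2, Slc1a3, Aldh1l1, Aqp4, Gja1, Atp1b2, Fgfr3, Sox9 and S100b) the summed level ran from 13000 to 18310 CPM in C_SC_A, from 4191 to 21930 at E1, from 2344 to 3845 at E4 and from 3417 to 5944 at Ech. Over 10 oligodendrocyte genes it ran from 14360 to 41870 CPM in controls, from 26910 to 62070 at E1, from 30350 to 77670 at E4 and from 25390 to 41600 at Ech. The oligodendrocyte sum was thus at or above the astrocyte sum in the typical control library (medians 18340 and 16980 CPM) and far above it in EAE. Atp1b2, the gene of the sorting antigen ACSA-2, had means of 6598 CPM in C_SC_A, 3492 at E1, 357 at E4 and 456 at Ech. Its means in the hindbrain groups ran from 4984 to 8284 CPM. Slc1a3, the gene of GLAST, had means of 179, 94.3, 30.8 and 31.8 CPM in the same spinal cord groups. Over 5 genes of dividing cells the sum ran from 1.15 to 28.3 CPM in controls and from 300.2 to 771 CPM at Ech, and over 4 oligodendrocyte precursor genes from 181.1 to 576.4 CPM and from 525.9 to 1927 CPM. Over 6 endothelial genes it was 2.2 to 11.2 CPM in controls, 9.88 to 32.1 CPM at E1, 17.1 to 40.4 CPM at E4 and 1.5 to 14.8 CPM at Ech. Over 9 mural and fibroblast genes it was 85.7 to 186.8 CPM in controls and 7.99 to 21.8 CPM at E4. Over 5 ependymal genes it was 69.1 CPM or less. Over 5 neuron genes it was 160.2 to 291 CPM in controls and 199.1 to 763.1 CPM in EAE, and over 4 neural progenitor genes its median was 64 CPM in controls and 183.6 CPM at Ech. The sum over 12 myeloid genes was 14.4 to 42.6 CPM in controls and 48.5 to 175.9 CPM at E1. It was 128.1 to 4712 CPM (median 155.8) at E4 and 54.2 to 178.4 CPM at Ech. The sum over 6 T cell genes was 0 to 4.96 CPM in controls, 1.24 to 10.3 CPM at E1, 5.91 to 34.1 CPM at E4 and 0 to 14.6 CPM at Ech. In bulk libraries fewer cells of a type and less RNA per cell cannot be told apart, and the part of these shifts in the changes of the members was not tested.

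Set against the astrocyte sum of the same library, Gfap had a median of 2.81 CPM per 1000 CPM of astrocyte genes in C_SC_A, 22.95 at E1, 35.7 at E4 and 7.93 at Ech. In this ratio the E4 spinal cord libraries (22.2 to 43.5) lay above those of E4_HB_A (7.5 to 12.8) and E4_HB_AG (5.72 to 15), the reverse of the order of the CPM levels. In the hindbrain the astrocyte sum stayed between 18080 and 30750 CPM at every stage, so that the ratio followed the level, with medians of 1.28, 8.61, 8.95 and 4.91 in HB_A and 0.632, 8.14, 8.09 and 2.57 in HB_AG. There the T cell sum moved with the stages, from 4.24 CPM or less in hindbrain controls to 8.47 to 89.3 CPM in E4_HB_A and 18.4 to 388 CPM in E4_HB_AG, as did the myeloid sum, from 92.1 CPM or less to 135 to 643 CPM in E4_HB_A, and the oligodendrocyte sum of HB_A ran from 1470 to 5101 CPM in controls and from 2482 to 11380 CPM at E4. The part of these cells in the Gfap difference was not tested.

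**Figure D3:**
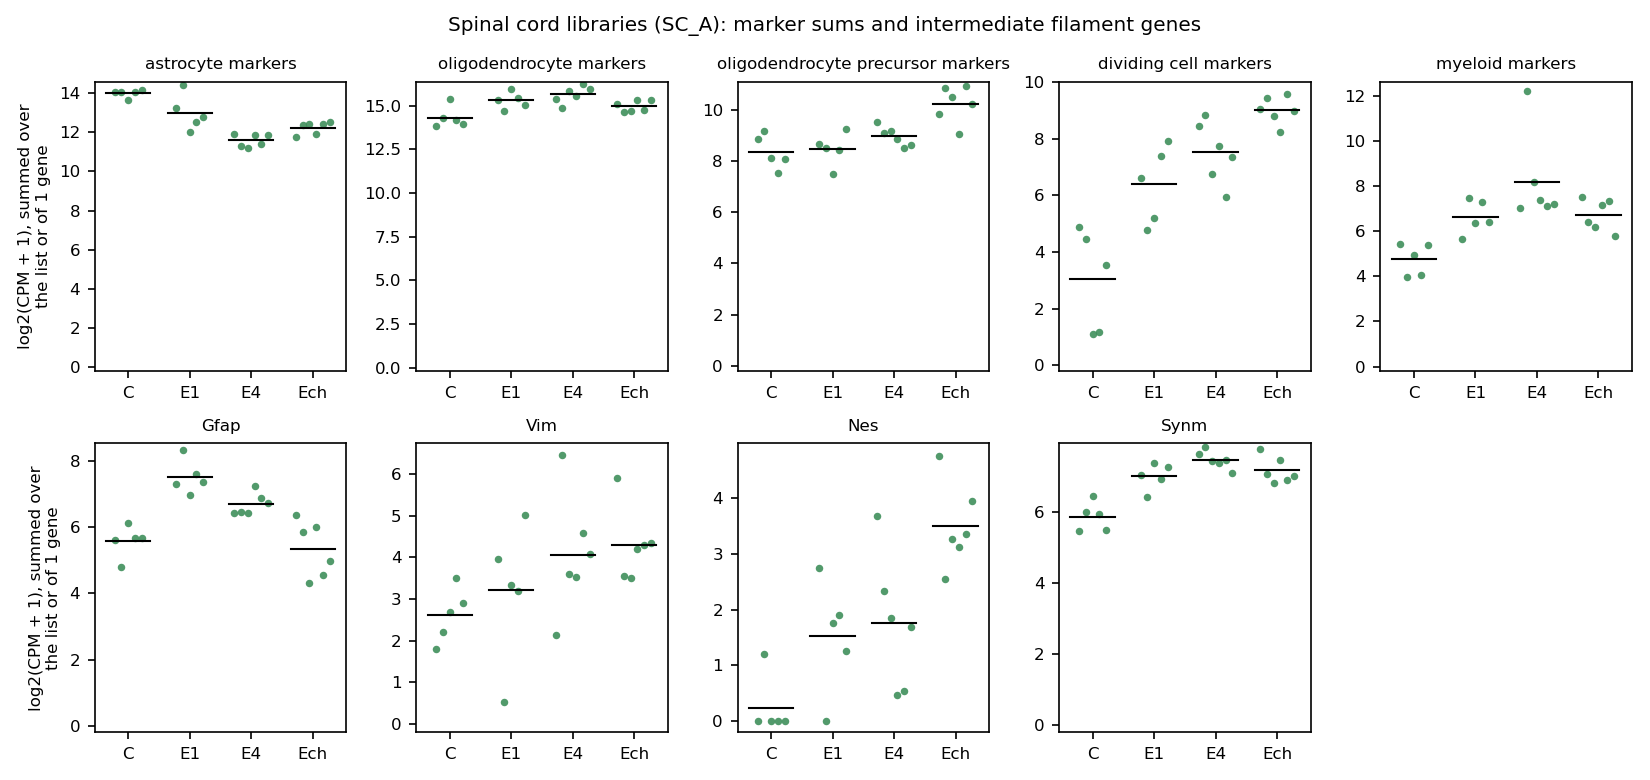
Marker sums and the 4 members in the spinal cord libraries (SC_A) by stage, as log2(CPM + 1) on the vertical axis, 1 point for each library. The astrocyte sum is lowest at E4 (2344 to 3845 CPM), the sum of dividing cell genes is highest at Ech (300.2 to 771 CPM), and 1 E4 library stands out in the myeloid sum (4712 CPM).

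Genes that work with these filaments were followed in 6 lists, which hold 60 genes, 54 of them tested. In the spinal cord 13 of these passed at E1 (7 higher, 6 lower), 26 at E4 (12 higher, 14 lower) and 25 at Ech (12 higher, 13 lower). Of all genes, 8.4%, 22.4% and 18.7% passed there, and at E4 9.74% were higher and 12.6% lower; the counts of the lists below stand against these shares. In the hindbrain 2 and 1 passed in HB_A at E1 and E4, where 0.656% and 0.755% of all genes passed. In HB_AG 2, 2 and 2 passed at E1, E4 and Ech, where 1.58%, 2.1% and 1.42% of all genes passed. In HB_A at Ech 0 passed with edgeR and with DESeq2, and 4 had an unadjusted p under 0.05, where 0.197% of all genes passed with edgeR. The hindbrain genes that rose at both E1 and E4 included Stat3, which encodes the transcription factor through which cytokines switch on Gfap. Stat3 rose by 1.44 ± 0.23 and 1.61 ± 0.23 in HB_A at E1 and E4 (adjusted p = 1.51e-05 and 6.73e-07) and by 1.95 ± 0.23 and 2.06 ± 0.23 in HB_AG (adjusted p = 1.79e-08 and 1.54e-09). Hspb1 passed in HB_A at E1, the mitotic kinase gene Cdk1 in HB_AG at E1 and E4, and the neurofilament gene Nefm and the kinase gene Pak1 in HB_AG at Ech, all of them higher.

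Among the regulators of Gfap, Vim or Nes transcription, 2 of 11 rose and 4 fell in the spinal cord at E4 (median log2 difference -0.12, against 0 over all genes). Stat3 rose at E1, E4 and Ech by 2.07 ± 0.24, 1.84 ± 0.23 and 1.61 ± 0.23, from 121 to 166 CPM in controls to 411 to 689 CPM at E4. Nfic, of the nuclear factor I family, rose by 0.84 ± 0.18 at E4. Sox9, which sets astrocyte fate and is also in the astrocyte sum above, fell from 394 to 462 CPM in controls to 11.3 to 60.7 CPM at E4 (-3.84 ± 0.32, adjusted p = 4.65e-16). Sox2 (-1.66 ± 0.24), Nfib (-1.99 ± 0.18) and Pou3f2 (-4.04 ± 0.30), regulators of neural progenitors and glia, fell at E4 as well. Nfia, Nfix, Crebbp and Ep300 did not pass and differed by -0.17, 0.36, -0.10 and -0.12.

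Of 13 other cytoplasmic filament genes tested, 6 fell at E4 in the spinal cord (median -1.2). These were the neurofilament genes Nefl (-1.92 ± 0.34) and Nefm (-2.01 ± 0.37), Ina, which encodes a neuronal filament partner (-1.20 ± 0.41), Prph of peripheral neurons (-5.32 ± 1.75) and the keratin genes Krt10 (-1.29 ± 0.46) and Krt222 (-4.01 ± 0.80). The sum over 5 neuron genes was higher at E4, at 160.2 to 291 CPM in C_SC_A and 473.7 to 707.3 CPM in E4_SC_A, and its part in these values was not tested. The nuclear lamins, the filaments of the nuclear envelope, had 2 of 3 genes higher at E4, Lmna (1.55 ± 0.45) and Lmnb1 (2.38 ± 0.43), and 3 of 3 at Ech. Lmnb1 had 15.4 to 43.6 CPM in controls and 184 to 365 CPM at Ech.

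Of 9 cytolinkers and anchoring partners, which tie filaments to membranes and to other fibres, 2 rose and 4 fell at E4 in the spinal cord (median -0.81). Dst (0.69 ± 0.21) and the focal adhesion gene Zyx (2.56 ± 0.64) rose. Macf1 (-1.93 ± 0.22), Vcl (-3.24 ± 0.71) and the members of the dystrophin complex Dtna (-1.85 ± 0.19) and Dmd (-2.81 ± 0.28), which anchors astrocyte endfeet, fell. Of 5 filament chaperones Hspb1 rose at E4, from 0 counts in all 5 controls to 0.778 to 13 CPM, above 3 counts in 4 of 6 libraries. Cryab and Bag3 did not pass (-0.02 and -0.25); Cryab, a small heat shock protein of astrocytes and oligodendrocytes, had 398 to 962 CPM in controls and 206 to 1060 CPM at E4.

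Of 13 enzymes that modify filaments 5 rose at E4 in the spinal cord (median 0.63). They were the kinase genes Rock1 (0.83 ± 0.16), Pak2 (0.63 ± 0.20), Plk1 (2.24 ± 0.85), Cdk1 (5.44 ± 1.33) and Cdk5 (1.14 ± 0.26), which phosphorylate filament proteins at division or during remodelling. Cdk1 is also counted in the list of dividing cell genes, and it was at 1.40 CPM or less in controls and at 29 to 77.8 CPM at Ech. Padi2, Rock2, Pak1 and Capn2 did not pass at E4 and differed by -0.09, 0.25, 0.77 and 0.18.

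The genes whose pattern was most like each member were taken by the Pearson correlation over the 12 group means of log2(CPM + 1), among the 10972 genes that averaged 5 CPM or more; the groups share controls and sorts, so these values are a description. Most like Gfap were Trim30a (0.956), Tspo (0.94), Ccr2 (0.91), Nfkbiz (0.886) and Oasl2 (0.885). Tspo encodes a mitochondrial protein used to image glial reaction, Ccr2 a chemokine receptor of monocytes that is in the myeloid list, and Trim30a and Oasl2 are interferon-stimulated genes. Most like Vim were Cacng5, N4bp3, Pcdh20, Akna and Wif1 (0.979 to 0.986), of which Wif1 encodes a Wnt inhibitor. Most like Nes were Pbk (0.951), Cdk1, Jpt1, Birc5 and Selenoh (0.939), of which Pbk, Cdk1 and Birc5 act in mitosis. Most like Synm were Gpr62 (0.993), Map7, Adssl1, Srcin1 and March1 (0.989), of which Gpr62 encodes a receptor of oligodendrocytes. Between the members themselves the same measure was -0.01 for Gfap and Vim, 0.05 for Gfap and Synm, 0.06 for Gfap and Nes, -0.40 for Vim and Nes, -0.80 for Vim and Synm and 0.75 for Nes and Synm.

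Ordered by group mean, Gfap ran from E4_HB_A (229 CPM) through E1_HB_A, E1_HB_AG, E4_HB_AG, E1_SC_A, Ech_HB_A, E4_SC_A, Ech_HB_AG, C_SC_A, Ech_SC_A and C_HB_A to C_HB_AG (20.3 CPM), and every neighbouring pair of groups overlapped in its libraries. For Vim the 4 HB_AG groups came first (430 to 539 CPM), then the 4 HB_A groups (29.7 to 54.2 CPM), then the 4 SC_A groups (5.69 to 25 CPM), and the gap between HB_AG and HB_A was the 1 place where neighbours did not overlap. For Synm the 4 SC_A groups came first (59.7 to 179 CPM) and the hindbrain groups followed (4.94 to 27.6 CPM), with overlap between all neighbours.

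The FVB/N libraries carry a doubt about their names. Matched by their values to the study's own list of normalised values, 12 of the 15 libraries bear another group name there than in their sample labels: labelled FB_GLASTpos is named HB_GLASTneg, labelled HB_GLASTneg is named SC_GLASTneg, labelled HB_GLASTpos is named FB_GLASTpos and labelled SC_GLASTneg is named HB_GLASTpos, while FB_GLASTneg (FB, forebrain) has the same name in both. The spinal cord position genes summed to 413.6 to 504 CPM in the 3 libraries labelled HB_GLASTneg and to 0 in the 3 libraries labelled SC_GLASTneg, which goes against these labels. Each group is therefore written as labelled with the other name in brackets, and no region is read from it.

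Vim again spread the groups most clearly. The libraries labelled SC_GLASTneg (named HB_GLASTpos) had 786, 713 and 612 CPM, those labelled FB_GLASTpos (named HB_GLASTneg) 189, 155 and 250 CPM and FB_GLASTneg 87.3, 108 and 275 CPM. The libraries labelled HB_GLASTpos (named FB_GLASTpos) had 80.7, 33.5 and 67.4 CPM and those labelled HB_GLASTneg (named SC_GLASTneg) 24.1, 40.9 and 49.4 CPM. The first group stood above all others without overlap and differed from each of them, by 2.16 ± 0.32 from FB_GLASTneg (adjusted p = 2.4e-07), by 1.81 ± 0.32 from labelled FB_GLASTpos (adjusted p = 1.95e-05), by 4.23 ± 0.37 from labelled HB_GLASTneg (adjusted p = 8.1e-16) and by 3.50 ± 0.34 from labelled HB_GLASTpos (adjusted p = 9.76e-14).

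Gfap was highest in the libraries labelled HB_GLASTneg (named SC_GLASTneg), with 73.2, 312 and 181 CPM, and lowest in those labelled HB_GLASTpos (named FB_GLASTpos), with 22, 9.25 and 16.6 CPM. Labelled FB_GLASTpos (named HB_GLASTneg) had 116, 82 and 73.4 CPM, FB_GLASTneg 26.2, 73.6 and 44.2 CPM and labelled SC_GLASTneg (named HB_GLASTpos) 58.3, 49.2 and 36.5 CPM. The difference between the highest and the lowest group was 3.53 ± 0.43 (adjusted p = 8.73e-10). Labelled HB_GLASTneg exceeded FB_GLASTneg by 1.97 ± 0.40 (adjusted p = 0.00037) and labelled SC_GLASTneg by 2.00 ± 0.40 (adjusted p = 0.000136), but without its replicate 2 these were 1.39 and 1.39 (adjusted p = 0.104 and 0.0509). The oligodendrocyte sum in labelled HB_GLASTneg was 10860 to 15640 CPM, against 1407 to 6625 CPM in the other FVB/N groups, and its part in these levels was not tested.

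Synm was near 50 CPM in 3 of the FVB/N groups and lower in the rest. FB_GLASTneg had 60, 30.8 and 59.8 CPM, labelled FB_GLASTpos (named HB_GLASTneg) 44.4, 62.1 and 92.8 CPM and labelled HB_GLASTneg (named SC_GLASTneg) 73.2, 49.6 and 51.7 CPM. Labelled HB_GLASTpos (named FB_GLASTpos) had 20.4, 12.7 and 21.2 CPM and labelled SC_GLASTneg (named HB_GLASTpos) 13.6, 10.8 and 4.3 CPM. The lowest group differed from the first 3 by -2.38 ± 0.55, -2.80 ± 0.55 and -2.62 ± 0.55 (adjusted p = 0.0017, 0.000205 and 0.000381). Nes was low in FVB/N mice, with 0 to 17.9 CPM against floors of 2.45 to 7.05 CPM. It exceeded 3 counts in all 3 libraries of FB_GLASTneg (5.46, 12 and 17.9 CPM) and all 3 of labelled FB_GLASTpos (mean 9.12 CPM). In labelled HB_GLASTneg, HB_GLASTpos and SC_GLASTneg, 0, 1 and 1 libraries exceeded 3 counts. Nes passed in none of the 10 pairs (lowest adjusted p = 0.417, 0 pairs with an unadjusted p under 0.05, and DESeq2 called 0).

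Over the 10 pairs of FVB/N groups, members passed as follows. For labelled FB_GLASTpos, HB_GLASTneg, HB_GLASTpos and SC_GLASTneg against FB_GLASTneg, 0, 2, 0 and 2 of 4 passed, where 1.34%, 2.74%, 0.174% and 5.75% of 14957 genes passed; the zeros had 1 and 3 members at an unadjusted p under 0.05, and DESeq2 called 0 in each. Against labelled FB_GLASTpos, labelled HB_GLASTneg, HB_GLASTpos and SC_GLASTneg had 1, 3 and 2 members, where 1.24%, 3.04% and 4.02% of genes passed. Labelled HB_GLASTpos and SC_GLASTneg against labelled HB_GLASTneg had 2 and 3, where 4.24% and 7.37% passed, and labelled SC_GLASTneg against labelled HB_GLASTpos had 2, where 5.76% passed. Synm in labelled HB_GLASTpos was -1.67 ± 0.52 from labelled HB_GLASTneg and -1.85 ± 0.51 from labelled FB_GLASTpos (adjusted p = 0.0421 and 0.0224), calls that were lost without any of the 6 libraries of the first pair (adjusted p = 0.0532 to 0.223) and without 5 of the 6 of the second pair (0.0602 to 0.289). Gfap in labelled SC_GLASTneg exceeded labelled HB_GLASTpos by 1.53 ± 0.43 (adjusted p = 0.0163), but not without replicate 2 or 3 of the latter (1.29 and 1.58, adjusted p = 0.139 and 0.0531).

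All 4 members were higher in cultured neonatal astrocytes than in the sorted FVB/N cells. Gfap had 500, 751 and 1156 CPM in the 3 cultures, Vim 3294, 4569 and 3428 CPM, Nes 525, 727 and 471 CPM and Synm 235, 137 and 68.3 CPM. The cultures lay above all sorted libraries for Gfap, Vim and Nes, and Synm of 1 culture overlapped them. Against the mean of the 5 groups the log2 difference was 3.79 ± 0.22 for Gfap, 4.78 ± 0.19 for Vim, 7.03 ± 0.26 for Nes and 2.19 ± 0.29 for Synm (adjusted p = 5.74e-18, 1.46e-23, 2.55e-24 and 5.64e-08). All 4 of 4 members passed, where 35.9% of genes passed, and the median difference of genes at 5 CPM or more was 0.21. The cultures also differed from the sorted cells in strain, age, region and RNA extraction, which cannot be told apart from the effect of culture. By the study's methods the cultures came from cerebrum and their RNA was extracted with TRIzol. The sorted cells came from forebrain, hindbrain and spinal cord, and their RNA was extracted with a column kit. The astrocyte sum was 4529 to 5610 CPM in the cultures against 22890 to 32120 CPM in FVB/N libraries, the mural and fibroblast sum 855 to 3210 CPM against 331 CPM or less and the dividing cell sum 207 to 609 CPM against 16.6 CPM or less, and their part in the difference was not tested.

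**Figure D4:**
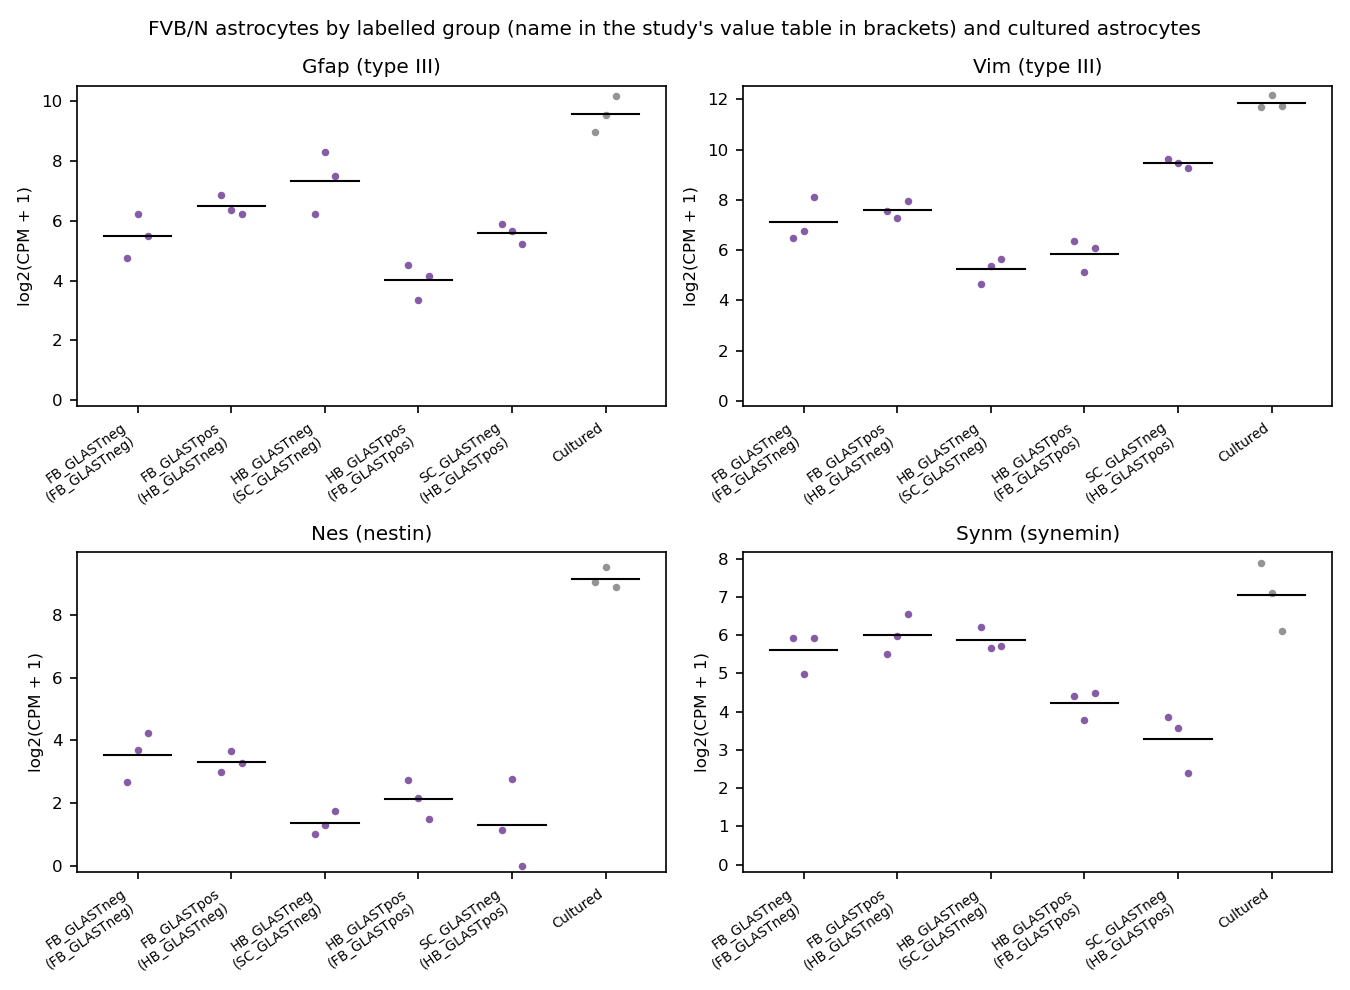
Level of the 4 members as log2(CPM + 1) on the vertical axis in each FVB/N and cultured library (points), by labelled group with the name from the study's value list in brackets and a bar at the group mean. Vim is highest among sorted cells in labelled SC_GLASTneg (612 to 786 CPM), and the 3 cultures lie above all sorted libraries for Gfap, Vim and Nes.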

How the data were processed

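The libraries were made by the study with a 3′ tag method (QuantSeq 3′ mRNA-Seq FWD), so most reads of a transcript come from its 3′ end. According to the submitters' processing notes and the study's methods, reads were aligned with HISAT (0.1.5) to GRCm38 and counted for each gene with HTSeq (0.6.1p1); the deposited values are raw counts per gene, with no normalization by the authors. Library totals ran from 416768 to 8188074 counts, and the floor of 3 counts covers counting error only. Nothing says which libraries came from separate mice, so p-values measure the spread between these libraries. From the counts, genes with a total of at least 10 were kept and scaled by TMM, and edgeR (4.0.16, R 4.3.3) quasi-likelihood tests over all groups of a table, with Benjamini-Hochberg adjustment over all genes, gave log2 differences and standard errors. The procedure was run on simulated counts in which only genes with counts well above the floor were changed. That run does not speak to genes near the floor, such as Nes. Alternatives were DESeq2 (1.42.0) and its size factors, limma (3.58.1) voom with the number in the titles' brackets as a random effect, other filters, a fit of 1 population, a term for the S number, a replicate block and leaving out each library; a newer quasi-likelihood fit, library totals without scaling and the libraries with S numbers above 56 were chosen after seeing the data. Other pathway genes were named where they passed in the spinal cord at E4 or had a mean of at least 50 CPM, and like genes were the 5 highest correlations per member. The members and lists were chosen with earlier results of these data known. Promoters came from RefSeq tables (GRCm38.p6), in which all 4 members matched; gene names matched 48058 and 25608 of the identifiers in the EAE and subtype tables. Protein sequences were not used here.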

Additional observations from a re-analysis of the deposited data

Results flagged for a closer look

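Among 47 groups of 4 to 6 libraries in which a member was measured, 5 had a library farther from the rest than Dixon's 95% limit allows. The limit is made for normally distributed values, which CPM near the floor are not. The number of flags is therefore not set against a chance rate. Where all other libraries had 0 counts, as for Nes in C_SC_A and E1_HB_AG, any count passes the limit. Vim was 86.3 CPM in replicate 2 of E4_SC_A, where the other 5 libraries had 3.38 to 23 CPM; this library also had the highest myeloid sum, 4712 CPM. Vim was 58.6 CPM in replicate 1 of Ech_SC_A, against 10.4 to 19.5 CPM in the others. Nes was 1.31 CPM (4 counts) in replicate 2 of C_SC_A against 0 in the other controls, 5.08 CPM in replicate 1 of E1_HB_AG against 0 in the other 5, and 11.8 CPM in replicate 1 of E4_SC_A against 0.389 to 4.04 CPM.

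In 5 cases the response to EAE of a member differed between populations by the interaction test in edgeR. At E4 the Gfap response in SC_A differed by -1.86 from that in HB_A and by -2.32 from that in HB_AG, and at Ech by -2.02 and -1.63 (adjusted p = 0.00628, 0.000285, 0.00285 and 0.0219). The Vim response at E4 was larger in SC_A than in HB_AG by 2.20 (adjusted p = 0.0123), and by 1.28 without replicate 2 of E4_SC_A (adjusted p = 0.137). The astrocyte marker sum of SC_A was 13000 to 18310 CPM in controls and 2344 to 3845 CPM at E4, and its part in these differences was not tested.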

How the results depend on the processing

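Of 152 member results over 38 comparisons, 47 passed the test, and 28 of these passed under every alternative run for them; none of the 47 changed sign. The number of the 4 members past the test changed as follows, and the cause was not tested unless named. With voom, Ech against C went from 1 to 0 in HB_A and in HB_AG, E1 against C in SC_A from 1 to 3, Ech against E4 in SC_A from 1 to 2, SC_A against HB_A in controls from 2 to 1, and the E4 response of SC_A against HB_A from 1 to 0 and against HB_AG from 2 to 1; it also gave 2 in place of 3 for E4 and Ech against C in SC_A and for SC_A against HB_AG in controls, and in the 2 chronic responses of SC_A it lost Gfap and gained Nes (4.80 against HB_A and 3.58 against HB_AG, adjusted p = 0.000612 and 0.0252). With a fit of 1 population, Ech against C in HB_AG went from 1 to 0, E1 against C in SC_A from 1 to 2, E4 against C in SC_A from 3 to 4 and Ech against E4 in HB_A from 0 to 1. DESeq2 gave 4 for E4 against C in SC_A and 3 in place of 2 for the E4 response of SC_A against HB_AG. With the newer quasi-likelihood fit, E1 against C in SC_A and Ech against E4 in SC_A went from 1 to 2, and labelled SC_GLASTneg against HB_GLASTpos from 2 to 1. With S numbers above 56 only, which leaves 1 E4_SC_A library, E4 against C in SC_A went from 3 to 0, Ech against C in SC_A from 3 to 2 and Ech against E4 in SC_A from 1 to 0; with the S number as a term the first and the last went to 1 and 0, and the E4 responses of SC_A to 0 against HB_A and 1 against HB_AG. Without a filter, labelled HB_GLASTpos against FB_GLASTneg went from 0 to 1, labelled HB_GLASTpos against HB_GLASTneg from 2 to 1 and against FB_GLASTpos from 3 to 2; DESeq2 size factors also gave 1 for the first of these. Fitted with the cultured libraries, labelled HB_GLASTneg and SC_GLASTneg against FB_GLASTneg went from 2 to 3, with Nes (adjusted p = 0.0235 and 0.03).

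Same-numbered replicates did not deviate together (mean r -0.00436, against 0.000974 for other numbers, and in FVB/N -0.0065 against 0.00326). Same-stage libraries of other populations with a shared bracket number had a mean r of 0.0421 over 40 pairs. With other bracket numbers it was -0.00489 over 323 pairs. The main fits were not paired, so they do not allow for a shared bracket number. The voom fit above does. With a replicate block, labelled HB_GLASTpos against FB_GLASTneg had 1 member past the test in place of 0 (Vim, -1.26, adjusted p = 0.00647), and no other count of members changed. Exchanging the FVB/N labels for the names in the study's list of values renames the 10 pairs and leaves each value as it is.

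With 1 library omitted at a time, there were 0 to 1 members for Ech against C in HB_AG, 1 to 2, 2 to 4 and 2 to 3 for E1, E4 and Ech against C in SC_A, 1 to 2 and 0 to 1 for Ech against E4 in HB_AG and SC_A, 0 to 1 for E4 against E1 in SC_A, 0 to 1, 1 to 3 and 0 to 2 for the responses of SC_A against HB_AG at E1, E4 and Ech, 1 to 2 and 0 to 1 for labelled HB_GLASTneg and HB_GLASTpos against FB_GLASTneg, 1 in every fit for labelled HB_GLASTpos against HB_GLASTneg (2 with all libraries), 2 to 3 for labelled HB_GLASTpos against FB_GLASTpos and SC_GLASTneg against HB_GLASTneg, and 1 to 2 for labelled SC_GLASTneg against HB_GLASTpos. The other counts did not change. Calls not given above were gained for Synm, Ech against E4 in HB_AG, without replicate 2 of E4_HB_AG (1.85, adjusted p = 0.0352), for Vim, E4 against E1 in SC_A, without replicate 5 of E1_SC_A (1.58, adjusted p = 0.0383), for the E1 response of Gfap in SC_A against HB_AG without replicate 2 of E1_SC_A or 3 of E1_HB_AG (-1.79 and -1.71, adjusted p = 0.0254 and 0.0369), for the chronic response of Vim in SC_A against HB_AG without replicate 4 of C_SC_A (2.07, adjusted p = 0.0429), and for Vim in labelled HB_GLASTpos against FB_GLASTneg without replicate 1 or 2 of the latter or 1 of the former (adjusted p = 0.0105, 0.0173 and 0.0315).

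The number of all genes past the test moved by more than 1.5 times with DESeq2 and with a fit of 1 population in several hindbrain comparisons, among them E1 against C in HB_A (153 genes, 268 and 574) and Ech against C in HB_AG (331, 800 and 144). For the chronic response of SC_A against HB_AG the median of genes from 5 CPM was -0.126, to which the Gfap value of -1.63 is relative. Depth limits Nes most, with floors of 0.634 to 2.44 CPM in EAE and 2.45 to 7.05 CPM in FVB/N libraries.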
